A study of Mus musculus with 12 samples.

Results

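The myosin heavy chains of skeletal and smooth muscle were followed through 12 RNA-seq libraries of mouse RPE/choroid/sclera complex. The members were the rows of the deposited count table whose gene name was Myh1, Myh2, Myh3, Myh4, Myh7, Myh8, Myh11 or Myh13. All 8 members were found among 21930 genes, and 7 of them are chains of striated muscle while 1, Myh11, is the smooth muscle chain. Male wild type C57BL/6J mice were fed ad libitum (AL) or fasted on alternate days (IF) for 12 weeks from 8 weeks of age. They were then injected once, intraperitoneally, with 25 mg/kg sodium iodate (NaIO3), which damages the RPE, or with PBS, and stayed on their diet. Eye cup tissue was taken 7 days later and gave 4 groups of 3 libraries, AL + PBS, IF + PBS, AL + NaIO3 and IF + NaIO3. For PCR the methods put both eye cups of a mouse in a tube, and for RNA-seq the sources used here give the sample size but not whether each library was a separate mouse. P-values therefore measure the spread between libraries, which may be technical.

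A myosin heavy chain is the motor protein of a thick filament, and a muscle fibre takes its speed largely from the chain it makes. Myh4, Myh1 and Myh2 encode the fast 2B, 2X and 2A chains of limb and trunk muscle, and Myh7 encodes the slow chain, which the heart also uses. Myh3 and Myh8 encode the embryonic and perinatal chains, which persist in some adult extraocular fibres. Myh13 encodes the chain that is largely particular to extraocular muscle, so its RNA is a marker of the muscles that insert on the sclera. Myh11 encodes the chain of smooth muscle, which in the back of the eye lies in vessel walls. Sets of these chains were therefore followed as a check of attached muscle, though they do not by themselves name the muscle.

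In the GRCm38 coordinates that the deposited table carries, 6 of the chains lay side by side on chromosome 11 in the order Myh3 (chr11:67078300-67102291), Myh2 (chr11:67171027-67197517), Myh1 (chr11:67200052-67224575), Myh4 (chr11:67238029-67260446), Myh8 (chr11:67277124-67308634) and Myh13 (chr11:67321658-67371586). Myh7 lay at chr14:54970684-54994626 and Myh11 at chr16:14194535-14291372. Myh7 was the member whose span overlapped another gene of the table, Gm17428. The promoters of the 3 fast chains, whose levels followed each other over the libraries, are shown because they share a stretch of sequence. RefSeq promoters on GRCm38.p6, running from 250 bases before to 50 bases after the start site, were matched for 7 of the 8 members. Capitals mark TATAAA and a 20-base run, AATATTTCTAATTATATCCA, which was the longest stretch common to the Myh1, Myh2 and Myh4 windows. All 3 windows are read on the plus strand.
Myh4, chr11:67237562-67237861: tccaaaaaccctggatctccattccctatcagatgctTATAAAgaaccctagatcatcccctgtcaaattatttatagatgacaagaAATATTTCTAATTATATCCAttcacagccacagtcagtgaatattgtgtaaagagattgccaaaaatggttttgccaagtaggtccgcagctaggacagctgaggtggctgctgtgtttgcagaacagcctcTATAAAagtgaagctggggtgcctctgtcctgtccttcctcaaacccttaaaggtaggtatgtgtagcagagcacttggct
Myh1, chr11:67199852-67200151: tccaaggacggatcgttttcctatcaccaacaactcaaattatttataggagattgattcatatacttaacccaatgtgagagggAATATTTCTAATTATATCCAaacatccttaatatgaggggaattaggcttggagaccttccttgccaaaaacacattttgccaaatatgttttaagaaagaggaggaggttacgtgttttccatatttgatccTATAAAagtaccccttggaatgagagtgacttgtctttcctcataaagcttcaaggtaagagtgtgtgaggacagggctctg
Myh2, chr11:67170777-67171076: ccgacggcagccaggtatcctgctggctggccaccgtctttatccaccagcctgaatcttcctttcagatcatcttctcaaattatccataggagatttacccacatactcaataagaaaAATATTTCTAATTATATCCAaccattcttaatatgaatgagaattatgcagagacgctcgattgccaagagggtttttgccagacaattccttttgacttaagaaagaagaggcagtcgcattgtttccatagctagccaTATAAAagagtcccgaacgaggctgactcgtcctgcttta
Counted from the RefSeq start site as 0, the run began at -163 in Myh4, at -165 in Myh1 and at -130 in Myh2. It was found, searching both strands, in 3 of 32851 promoters (0.00913%), which were those of these 3 genes. Because the run was picked as common to these 3 windows, its presence in them was set in advance, and the count is no test. TATAAA was present on the gene's strand in all 3 windows, against 13.6% of all promoters with it on either strand. It began at -32 in Myh1, at -213 and -31 in Myh4 and at 10 in Myh2. An E-box, CANNTG, was in 72.3% of all promoters and in that of Myh4 but not in those of Myh1 and Myh2. The Myh13 window held neither the run nor TATAAA. Its RefSeq start, at chr11:67327103, lies inside the span given for Myh13 above, so the window may not be the promoter of that gene. These matches are descriptions of letters and not binding sites.

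The libraries held 26364665 to 43046950 counts, and 3 counts corresponded to 0.0697 to 0.114 CPM, the count scaled to library size. Rod genes were abundant in a tissue labelled RPE/choroid/sclera, with a mean deposited FPKM of 3133 for Gnat1 (rod transducin), while the RPE gene Rpe65 lay between 19.1 and 67.6 FPKM. The lens crystallin Cryaa reached 91.6 FPKM in AL + PBS replicate 2 and the corneal keratin Krt12 reached 69.1 FPKM in AL + NaIO3 replicate 2. The proteoglycan Dcn, a marker of stroma and so of the labelled tissue, reached 396 FPKM in AL + NaIO3 replicate 3. In bulk tissue, fewer cells of a type and less RNA per cell cannot be told apart.

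Among the skeletal chains the fast limb-type ones led, and the extraocular chain was at or near 0. By deposited FPKM, which is per length and allows genes to be compared, Myh4 averaged 4.45 ± 2.72 (SD, n = 12 libraries), Myh1 1.56 ± 0.984, Myh11 1.31 ± 1.13 and Myh2 0.800 ± 0.644. Myh3 averaged 0.264 ± 0.242, Myh7 0.258 ± 0.199, Myh8 0.0165 ± 0.0141 and Myh13 0.00710 ± 0.00932. Myh4 stood above Myh11 in 10 of 12 libraries, the exceptions being IF + PBS replicate 1 and AL + NaIO3 replicate 3. It stood above Myh1 in 12 of 12 libraries, Myh2 above Myh3 in 12 of 12 and Myh7 above Myh8 in 12 of 12. The other neighbours in the order of means changed places between libraries. Myh1 was above Myh11 in 6 of 12 libraries, Myh11 above Myh2 in 8 of 12, Myh3 above Myh7 in 6 of 12 and Myh8 above Myh13 in 7 of 12.

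Myh13, a marker of extraocular muscle, was at or near 0, so the skeletal chains are called here by their genes. The fast chains are also made in extraocular muscle, and which muscle the RNA came from was not tested. Myh13 had 25 counts in all libraries together and was at 0 in 7 of 12. Its counts were 6, 7 and 4 in AL + PBS, 0 in each IF + PBS and each AL + NaIO3 library, and 4, 4 and 0 in IF + NaIO3. So AL + PBS was the group with counts in every library. Myh8 had 51 counts, 9, 6 and 5 in AL + PBS, 4, 8 and 5 in IF + PBS, 9, 0 and 0 in AL + NaIO3 and 0, 0 and 5 in IF + NaIO3. Both genes failed the filter on low counts in every comparison and were not tested there. Fitted without that filter, no Myh13 comparison passed (edgeR adjusted p of 0.250 for IF + PBS against AL + PBS and 0.410 for AL + NaIO3 against AL + PBS). A count of 0 in a library allows up to 3 counts, which covers counting error only.

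Per library, the 7 skeletal chains summed to between 0.754 FPKM in IF + PBS replicate 1 and 12.98 FPKM in IF + NaIO3 replicate 3. Their counts made up 0.000517% to 0.00923% of a library. Myh4 supplied 58.9% ± 11.1 of the summed FPKM (SD, n = 12), from 35.9% to 70.9%, and Myh1 supplied 21.0% ± 3.15, from 14.8% to 26.9%. Myh2 supplied 10.4% ± 3.86, Myh7 5.57% ± 6.70, Myh3 3.70% ± 2.79, Myh8 0.384% ± 0.600 and Myh13 0.115% ± 0.160. From counts per kilobase of exon instead, the mean shares were 65.9% for Myh4, 17.5% for Myh1, 9.10% for Myh2, 4.32% for Myh3 and 2.74% for Myh7, so that Myh3 and Myh7 changed places. By FPKM Myh4 was the leading chain in each library, and the share of Myh1 varied least relative to its mean. The Myh7 share of 22.1% in IF + PBS replicate 1 stood on 25 counts. The length implied by Myh7's count and FPKM ran from 2395 to 7602 bases between libraries, so its FPKM did not follow its count, whereas that of Myh4 ran from 7119 to 7409.

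**Figure D1:**
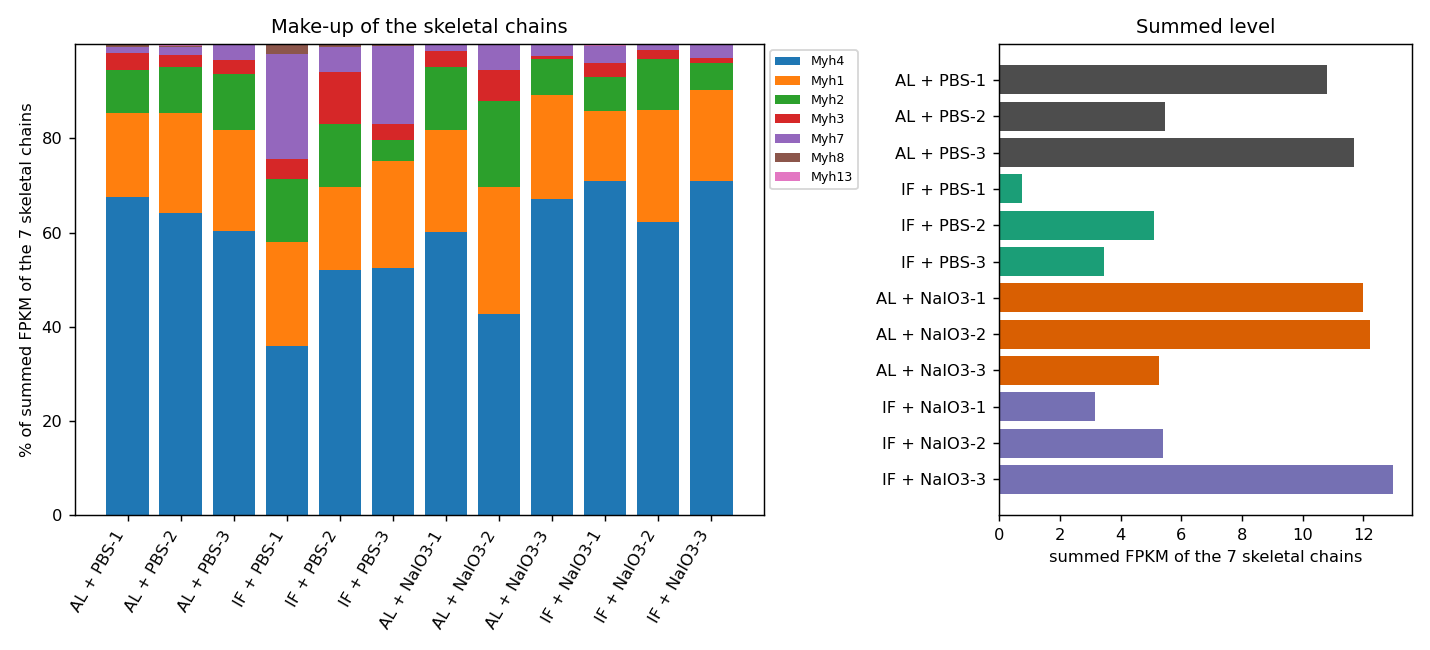
Left, the share of each skeletal chain in the summed FPKM of the 7 chains (stacked %, 1 bar a library), and right, the sum itself in FPKM. Myh4 is the largest segment in all 12 bars, from 35.9% to 70.9%, while the sum runs from 0.754 to 12.98 FPKM.

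The level of Myh4, as CPM, was 53.2, 26.1 and 51.3 in AL + PBS, 1.99, 19.5 and 12.98 in IF + PBS, 55.7, 35.9 and 22.1 in AL + NaIO3 and 17.0, 26.3 and 68.6 in IF + NaIO3. Each IF + PBS library lay below each AL + PBS library, while the NaIO3 groups overlapped and IF + NaIO3 replicate 1 lay below IF + PBS replicate 2. Myh1, the 2X chain, was at 14.3, 8.69 and 18.5 CPM in AL + PBS, 1.25, 6.69 and 5.22 in IF + PBS, 20.4, 22.6 and 6.72 in AL + NaIO3 and 3.59, 10.2 and 18.0 in IF + NaIO3. It had the same split, with IF + PBS below AL + PBS throughout. Myh2, the 2A chain, was at 7.17, 3.78 and 9.82 CPM in AL + PBS, 0.738, 5.09 and 1.18 in IF + PBS, 12.6, 15.5 and 2.63 in AL + NaIO3 and 1.78, 4.58 and 5.54 in IF + NaIO3. For Myh2, IF + PBS replicate 2 lay within the AL + PBS range.

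Myh3, the embryonic chain, was at 2.88, 0.992 and 2.59 CPM in AL + PBS, 0.257, 4.18 and 0.807 in IF + PBS, 3.21, 5.55 and 0.186 in AL + NaIO3 and 0.746, 0.882 and 1.04 in IF + NaIO3. Single libraries made its extremes, and IF + NaIO3 was the tight group. Myh7, the slow chain, was at 0.768, 0.732 and 1.48 CPM in AL + PBS, 0.802, 1.18 and 1.55 in IF + PBS, 1.06, 3.95 and 0.903 in AL + NaIO3 and 0.660, 0.441 and 0.901 in IF + NaIO3. AL + NaIO3 replicate 2 was the high library for Myh7, and it was also the highest of the 12 for Myh1, Myh2 and Myh3. Myh11, the smooth muscle chain, was at 17.1, 6.23 and 4.43 CPM in AL + PBS, 8.57, 7.74 and 6.65 in IF + PBS, 9.14, 8.67 and 31.0 in AL + NaIO3 and 5.31, 4.66 and 8.77 in IF + NaIO3. Its high libraries were AL + NaIO3 replicate 3 and AL + PBS replicate 1, and IF + PBS was its tight group.

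**Figure D2:**
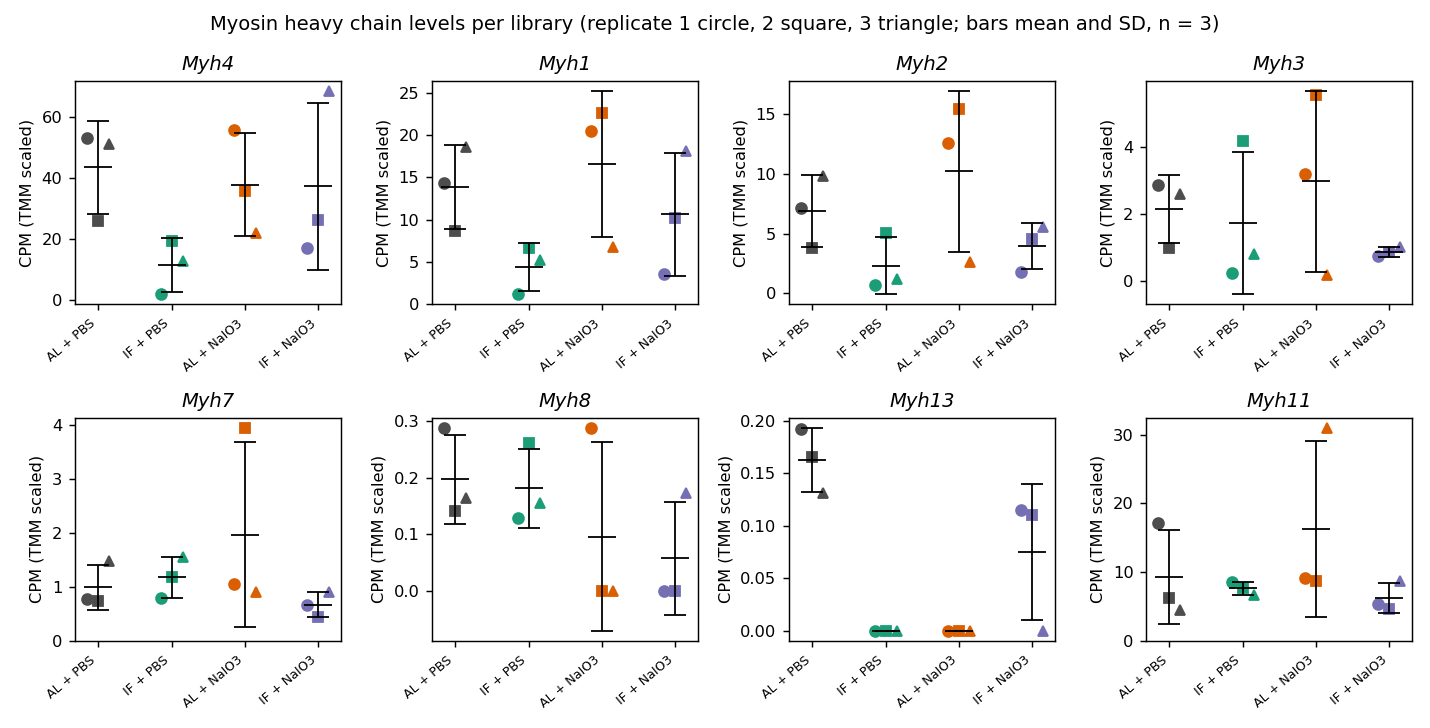
Level of each of the 8 chains in CPM (linear axis, own scale per panel) by group, with 1 point a library and bars for the mean and SD of 3 libraries. The IF + PBS points of Myh4 and Myh1 lie below all AL + PBS points, Myh13 is at 0 in 7 of 12 libraries, and the highest Myh11 point is the AL + NaIO3 replicate 3 library at 31.0 CPM.

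Libraries of one group differed far more in these chains than in most genes. The pooled SD within groups, on the log2 CPM scale, was 1.10 for Myh4, 1.03 for Myh1, 1.13 for Myh2 and 1.59 for Myh3, against a median of 0.24 over 15970 genes. It was larger than that of 96.0%, 95.1%, 96.3% and 99.5% of those genes, in that order. For Myh7 it was 0.71, larger than in 88.4% of genes, and for Myh11 it was 0.77, larger than in 90.2%.

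No correlation between a skeletal chain and the smooth muscle chain passed the test. Over the 12 libraries the log2 CPM of Myh4 and Myh11 gave a Pearson r of 0.05 and a Spearman rho of 0.29. Myh1, Myh2, Myh3 and Myh7 gave r with Myh11 of 0.02, -0.00, -0.25 and 0.03, and Myh8 gave -0.01. With permutation tests (100000 permutations, two-sided) adjusted over 13 relations, r of each had an adjusted p of 0.996 and rho one of 0.948. Leaving out the 2 libraries farthest from the Myh11 median, AL + PBS replicate 1 and AL + NaIO3 replicate 3, r of Myh4 with Myh11 was -0.10, and with group means removed it was -0.06. With group means removed r with Myh11 was -0.27 for Myh1, -0.38 for Myh2, -0.45 for Myh3 and -0.43 for Myh7, values that were not tested. Without those 2 libraries r with Myh11 was 0.37 for Myh7, 0.38 for Myh8 and -0.86 for Myh13, which over all libraries was at -0.30. Myh8 and Myh13 rest on few counts. The same tests between Myh13 and the other skeletal chains gave r from -0.45 with Myh7 to 0.26 with Myh4, each with an adjusted p of 0.996, and in counts this sparse they are no finding. A p that misses the threshold does not show that chains are unrelated.

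The ratio of the summed skeletal FPKM to Myh11 FPKM ran from 0.688 in IF + PBS replicate 1 to 20.7 in AL + PBS replicate 3. In AL + PBS it was 4.81, 6.89 and 20.7, and in IF + PBS 0.688, 5.16 and 3.97. In AL + NaIO3 it was 10.9, 10.4 and 1.14, and in IF + NaIO3 4.80, 9.68 and 11.6. The ranges of all 4 groups overlapped between 4.81 and 5.16.

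**Figure D3:**
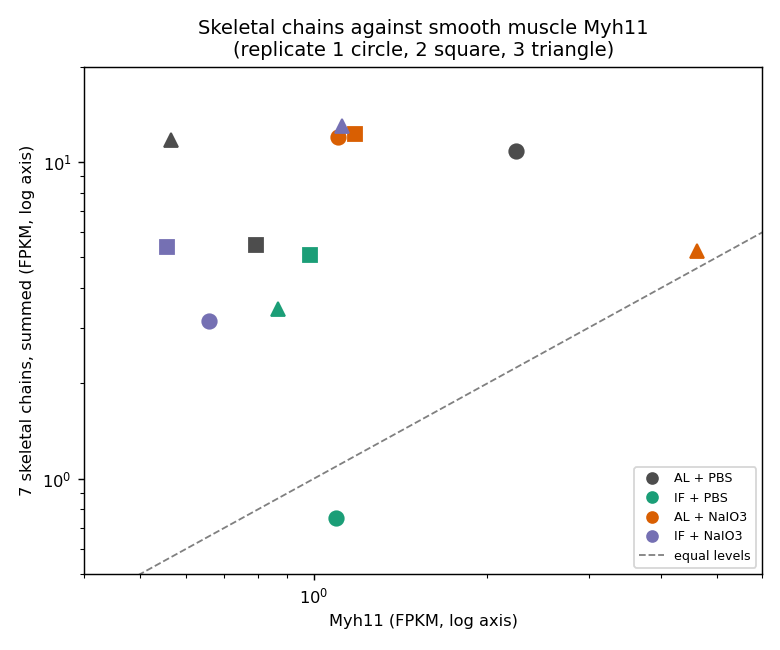
Summed FPKM of the 7 skeletal chains against Myh11 FPKM, both on log axes, with 1 point a library and a dashed line where the levels are equal. The points form no line: AL + NaIO3 replicate 3 is at the right with a ratio of 1.14, and IF + PBS replicate 1 is the point below the dashed line with a ratio of 0.688.

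Within the skeletal chains the 3 fast ones followed each other. Myh1 and Myh4 gave r of 0.94 and rho of 0.89 over 12 libraries, with permutation p adjusted over 28 pairs of 0.00042 and 0.0028. Myh1 and Myh2 gave r of 0.93 and rho of 0.94, with adjusted permutation p of 0.00028 and 0.00084. For Myh2 and Myh4 the values were 0.84 and 0.84, with 0.00243 and 0.00819. Without the 2 libraries farthest from the median of the first gene, r was 0.90 for Myh1 with Myh4, 0.90 for Myh1 with Myh2 and 0.70 for Myh2 with Myh4. With group means removed the 3 values were 0.92, 0.88 and 0.77. These pairs share the libraries' depth and scaling, and 150-base windows shared with another myosin heavy chain transcript made up 1.89% of Myh1, 1.80% of Myh2 and 0.485% of Myh4. For 50-base windows the shares were 20.3%, 23.6% and 17.9%.

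Among pairs with the embryonic or slow chain, Myh2 and Myh3 gave r of 0.81 and rho of 0.87, with adjusted permutation p of 0.00959 and 0.00532, and r of 0.80 without the 2 libraries farthest from the Myh2 median. With group means removed r of this pair was 0.92. Myh1 and Myh3 gave r of 0.69, rho of 0.71 and adjusted permutation p of 0.0638 and 0.0651, and r of 0.78 with group means removed. Myh4 and Myh3 gave r of 0.59, rho of 0.59 and adjusted permutation p of 0.170 and 0.228. Myh4 and Myh7 gave r of 0.15, rho of 0.06 and adjusted permutation p of 0.984 and 0.949. Whether these correlations differ from those among the fast chains was not tested. Of Myh7, 5.31% of 150-base windows were shared, most of them with the heart chain Myh6.

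The genes most like Myh4 in log2 CPM over 12 libraries, among 15970 genes and outside the members, were Myot (r 0.967), Atp2a1 (0.964), Myoz1 (0.957), Tnni2 (0.954) and Art1 (0.951). Myot encodes the Z-disc protein myotilin, Atp2a1 the calcium pump of fast fibres, Tnni2 fast troponin I and Art1 an ADP-ribosyltransferase. Leaving out any 1 library, the lowest r of each lay between 0.893 and 0.959, in each case without IF + PBS replicate 1. An r over 0.9 with Myh4 was found for 20 of 15970 genes (0.125%), a count that includes Myh4 itself and the member Myh1. Of these 20, 13 were among the 29 genes of a list of skeletal sarcomere and fast fibre markers. The list's median r with Myh4 was 0.89, against -0.00 over all genes. Its lowest were Cacna1s (-0.31), Eno3 (-0.08) and Pygm (0.14), which were named after their values were seen.

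Myh11 had other company. Its most similar genes were Mrvi1 (r 0.925), which encodes a cGMP kinase substrate of smooth muscle, St6gal1 (0.923), Podn (0.921), Slc7a5 (0.916) and Tbc1d2b (0.915). Without AL + NaIO3 replicate 3, the library that lowered them most, r of these 5 lay between 0.795 and 0.842. The median r with Myh11 was 0.68 for 7 pericyte markers, 0.58 for 7 markers of scleral and choroidal stroma and 0.52 for 11 smooth muscle genes. It was 0.10 for the 29 skeletal genes and -0.70 for 7 rod genes. Among the smooth muscle genes r with Myh11 ran from -0.41 for Synpo2 to 0.89 for Myl9, with Mylk at -0.03. In AL + NaIO3 replicate 3 the summed level of the pericyte list was 295 CPM, against 66.7 to 104 in the other libraries, and that of the stroma list 1313 CPM, against 67.5 to 221. The rod list was lowest there, at 17492 CPM against 33871 to 58186 in the other libraries. The part of these lists in the Myh11 level of that library was not tested.

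**Figure D4:**
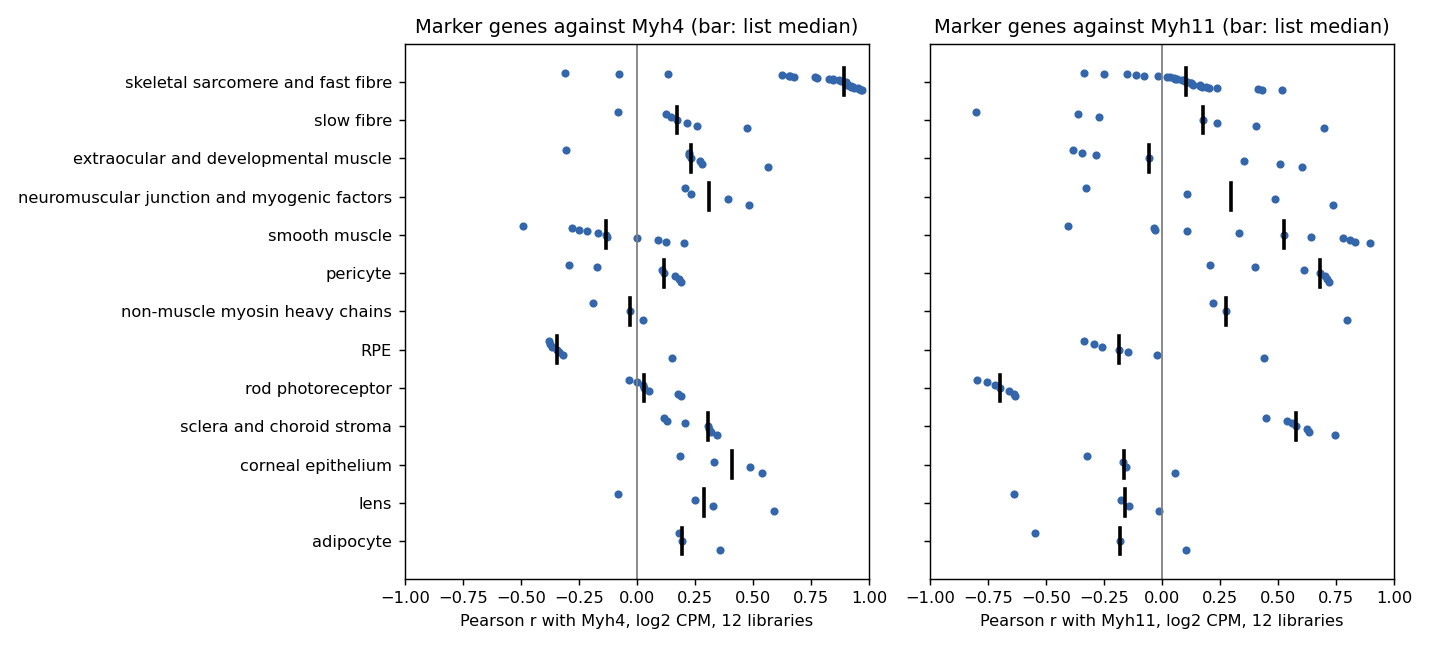
Pearson r over 12 libraries of each marker gene (1 point a gene) with Myh4, left, and Myh11, right, on log2 CPM, with a bar at the median of each list. Skeletal sarcomere genes sit at a median of 0.89 with Myh4 and 0.10 with Myh11, while pericyte genes sit at 0.12 and 0.68.

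The comparisons of groups asked whether diet or injection went with the level of these chains. Calls needed an edgeR adjusted p below 0.05 and, outside the interaction, a change of 1.5-fold or more. Of the 6 members that passed the filter on low counts, none was called in any comparison. The background was 0.0769% of genes for AL + NaIO3 against AL + PBS, 0.0383% for IF + NaIO3 against AL + NaIO3 and 0% for each of the other 2 comparisons. It was 0.0313% for the interaction of diet and injection. DESeq2 called 0 of 6 members in each comparison but IF + NaIO3 against IF + PBS, where it gave an adjusted p to 1 of 6, Myh4, which was not called, so that the other 5 could not be called there. Among genes with an adjusted p its background was 2.64% of genes for AL + NaIO3 against AL + PBS, 3.06% for IF + NaIO3 against AL + NaIO3, 1.33% for IF + PBS against AL + PBS, 0.723% for IF + NaIO3 against IF + PBS and 1.42% for the interaction. Comparisons that share a group are not independent of each other.

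In IF + PBS against AL + PBS the fast chains were the members with the smallest p. Myh4 averaged 11.5 ± 8.83 CPM against 43.5 ± 15.1 (SD, n = 3 each), a log2 fold change of -1.92 ± 0.57 (SE) with an edgeR adjusted p of 0.193. Myh1 averaged 4.39 ± 2.81 against 13.8 ± 4.94 CPM, a log2 fold change of -1.66 ± 0.48 with an edgeR adjusted p of 0.191. For Myh2 the log2 fold change was -1.56 ± 0.61 with an edgeR adjusted p of 0.247. It was -2.84 (edgeR adjusted p of 0.0979) without IF + PBS replicate 2 and -1.14 without IF + PBS replicate 1. Myh3 at -0.30 ± 0.78, Myh7 at 0.25 ± 0.45 and Myh11 at -0.27 ± 0.41 lay within 1 SE of no difference. Myh3 was at -1.999 (edgeR adjusted p of 0.339) without IF + PBS replicate 2 and at 0.21 without IF + PBS replicate 1. Myh11 was at 0.52 without AL + PBS replicate 1, and Myh7 at 0.65 without AL + PBS replicate 3. Groups did not overlap for 2 of 6 members, Myh4 and Myh1, against 21.9% of all genes. The unadjusted p was under 0.05 for 3 of 6, against 17.1% of all genes.

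The calls in this comparison turned on 1 library. Without IF + PBS replicate 1, which held 62 counts of Myh4, edgeR called 2 members. Myh4 then had a log2 fold change of -1.43 (edgeR adjusted p of 0.0198) and Myh1 one of -1.22 (0.0313), and 472 genes (3.03%) were called where 0 were called with it. For Myh4 and Myh1 a smaller difference was thus called once the most extreme library was out. Summed corneal markers were 20.6 to 43.6 CPM in AL + PBS and 4.84 to 11.7 in IF + PBS, and summed stroma markers 142 to 221 and 67.5 to 122 CPM. Summed lens markers were 4.01 to 203 against 1.03 to 1.49 CPM, RPE markers 1975 to 2149 against 2228 to 2749 and rod markers 50517 to 53152 against 44917 to 49861. None of these 5 sums, out of 13 lists, overlapped between the groups, where 21.9% of all genes did not. The slow fibre, extraocular and developmental, neuromuscular, smooth muscle, pericyte, non-muscle and adipocyte sums did overlap. The part of other tissues in the difference of the fast chains was not tested.

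The list of 29 skeletal sarcomere and fast fibre genes, which holds no member, showed the same direction in IF + PBS. Its genes followed Myh4 over these same libraries, with a median r of 0.89, so they are not separate evidence. Lower values were found for 27 of 29 genes, 21 of them with an unadjusted p under 0.05, and 1 gene was higher with such a p. The median log2 fold change was -1.43, against 0.01 over all genes, and 0 of the 29 were called by edgeR. Mylpf, a fast regulatory light chain, was at -1.43 ± 0.37, Tnnt3, fast troponin T, at -1.58 ± 0.51 and Pvalb, the calcium buffer parvalbumin, at -0.61 ± 0.26. Without IF + PBS replicate 1, edgeR called 14 of the list, 13 lower and Eno3 higher, and DESeq2 on all libraries called 7, all lower, among them Ttn and Myoz1. Of all genes, edgeR without that library called 1.96% lower and DESeq2 0.754%. The summed level of the list was 352, 513 and 609 CPM in AL + PBS and 141, 254 and 315 CPM in IF + PBS, with no overlap. The 11 tested smooth muscle genes had a median of 0.03, with 6 higher and 5 lower.

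With NaIO3 injection under IF (IF + NaIO3 against IF + PBS), Myh4 averaged 37.3 ± 27.5 against 11.5 ± 8.83 CPM, a log2 fold change of 1.70 ± 0.66 (SE) with an edgeR adjusted p of 0.275. It was 0.92 without IF + NaIO3 replicate 3 and 2.31 without IF + PBS replicate 2. Myh1 was at 1.27 ± 0.60, Myh2 at 0.76 ± 0.64, Myh3 at -0.97 ± 0.78, Myh7 at -0.82 ± 0.47 and Myh11 at -0.29 ± 0.26. The groups overlapped for 6 of 6 members, where 20.9% of all genes did not overlap. Myh4 alone had an unadjusted p under 0.05, 1 of 6 against 15.2% of genes. The skeletal list was higher in 26 of 29 genes with a median of 0.84, and 0 of its genes were called. The 4 corneal markers were all higher, with a median of 2.17, 3 of them with an unadjusted p under 0.05. All 7 RPE markers were lower, with a median of -0.68 and 5 at such a p, and 7 of 9 smooth muscle genes were lower, with a median of -0.42 and 2 at such a p. The part of these lists in the values of the chains was not tested.

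With NaIO3 under AL (AL + NaIO3 against AL + PBS), the fast chains showed no common direction over all libraries. Myh4 was at a log2 fold change of -0.19 ± 0.37 (SE), Myh1 at 0.27 ± 0.45, Myh2 at 0.57 ± 0.61 and Myh3 at 0.47 ± 0.93. Without AL + NaIO3 replicate 3 Myh4 was at 0.08, Myh1 at 0.64 and Myh2 at 1.02. Without AL + NaIO3 replicate 2 they were at -0.15, -0.02 and 0.14. Myh7 was at 0.99 ± 0.66, and without AL + NaIO3 replicate 2 it was at -0.00071. Myh11 was at 0.83 ± 0.65 (edgeR adjusted p of 0.698), and without AL + NaIO3 replicate 3 it was at -0.06. The groups overlapped for 6 of 6 members, where 18.3% of all genes did not, and 0 of 6 had an unadjusted p under 0.05, against 10.2% of genes. The skeletal list had 9 genes higher and 20 lower, with a median of -0.15 and none at an unadjusted p under 0.05. Of the markers of other tissues none was called in this comparison, and their directions were as follows. The 7 stroma markers were all higher (median log2 fold change of 1.33, none at an unadjusted p under 0.05), the 4 corneal markers all higher (2.18, 2 at such a p) and the 7 pericyte markers all higher (0.76, 2 at such a p). Of 7 RPE markers 6 were lower, 5 of them at such a p, with a median of -1.06. All 4 tested lens markers were lower, with a median of -3.92 and 2 at such a p. The lens sum was 4.01 to 203 CPM in AL + PBS and 0.770 to 1.67 in AL + NaIO3. Of 7 rod markers 6 were lower, with a median of -0.56 and none at such a p. The stroma sum was 196, 104 and 1313 CPM in AL + NaIO3 against 142 to 221 in AL + PBS, so that AL + NaIO3 replicate 3 alone lay above the AL + PBS range. AL + NaIO3 replicate 2, the high library of Myh7, had a corneal sum of 444 CPM, against 4.84 to 82.7 in the other libraries. The part of these tissues in the values of the chains was not tested.

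Between the diets after NaIO3 (IF + NaIO3 against AL + NaIO3), Myh4 differed least over all libraries, with 37.3 ± 27.5 against 37.9 ± 16.9 CPM and a log2 fold change of -0.04 ± 0.51 (SE). Leaving out 1 library at a time could turn the direction of the Myh4 value, whose range is given in the closing section. Myh11 averaged 6.24 ± 2.21 against 16.3 ± 12.8 CPM, a log2 fold change of -1.41 ± 0.53 with an edgeR adjusted p of 0.378. Without AL + NaIO3 replicate 3 it was -0.53. Myh7 was at -1.57 ± 0.68 (edgeR adjusted p of 0.427) and, without AL + NaIO3 replicate 2, at -0.57. Myh2 was at -1.38 ± 0.65, Myh3 at -1.75 ± 0.93 and Myh1 at -0.66 ± 0.60. Leaving out 1 library at a time, Myh3 ranged from -2.31 (edgeR adjusted p of 0.0539, without AL + NaIO3 replicate 3) to -0.93 (without AL + NaIO3 replicate 2). Myh1 ranged from -1.27 (without IF + NaIO3 replicate 3) to -0.24 (without IF + NaIO3 replicate 1). Groups did not overlap for 1 of 6 members, Myh7, against 18.9% of all genes, and 2 of 6, Myh7 and Myh11, had an unadjusted p under 0.05, against 11.7%.

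Other contractile genes of smooth muscle were lower in that comparison without passing the edgeR test. Of 9 tested smooth muscle genes 7 were lower, 3 of them with an unadjusted p under 0.05, and the median log2 fold change was -0.75, against -0.01 over all genes. Acta2, smooth muscle actin, was at -1.82 ± 0.63, Myl9, a regulatory light chain, at -1.11 ± 0.28, and Mylk, the light chain kinase, at 0.06 ± 0.13. DESeq2 called Acta2, Myl9 and Tagln lower, where it called 2.72% of all genes lower. The highest library was again AL + NaIO3 replicate 3, with Acta2 at 22.5 FPKM against 2.01 to 6.24 in the other libraries. The 7 pericyte markers were all lower, with a median of -0.60, and 27 of 29 skeletal genes were lower, with a median of -0.51 and none at an unadjusted p under 0.05. The 7 stroma markers were all lower, with a median of -1.996 and 6 at an unadjusted p under 0.05, and the 4 corneal markers were all lower, with a median of -2.006 and 1 at such a p. Single libraries were high in each list. Summed stroma markers were 196, 104 and 1313 CPM in AL + NaIO3 against 117 to 141 in IF + NaIO3, and corneal markers 34.7, 444 and 23.5 against 14.1 to 82.7, so the groups overlapped in both sums. The 7 rod markers were all higher, with a median of 0.54 and none at such a p, and 6 of 7 RPE markers were higher, 3 of them at such a p, with a median of 0.57. The part of these other tissues in the differences of the chains was not tested.

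The difference between the diets' responses to NaIO3, tested as the interaction, was a log2 value of 1.90 ± 0.91 (SE) for Myh4 with an edgeR adjusted p of 0.424 and -1.81 ± 0.84 for Myh7 with 0.419. Without AL + NaIO3 replicate 2 the Myh7 value was -0.82, and without IF + NaIO3 replicate 3 the Myh4 value was 1.11. Myh1 was at 1.01 ± 0.88, Myh2 at 0.20 ± 1.01, Myh3 at -1.44 ± 1.37 and Myh11 at -1.11 ± 0.75, which was -0.24 without AL + NaIO3 replicate 3. None of the 6 had an unadjusted p under 0.05, against 12% of genes. The interaction was positive for 26 of 29 skeletal genes with a median of 0.94, and 0 of these were called.

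**Figure D5:**
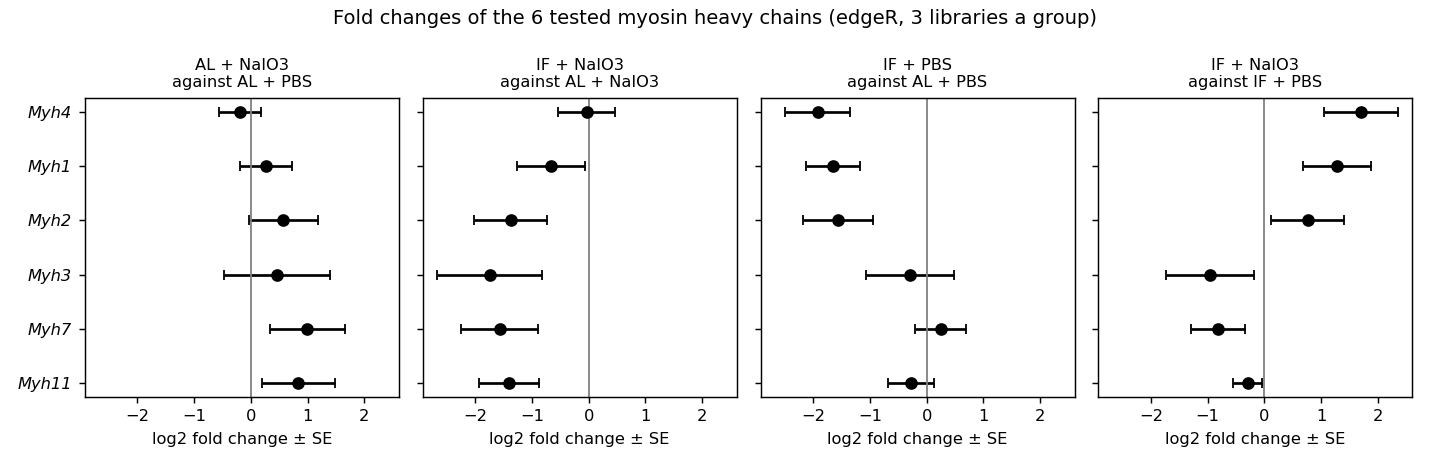
Log2 fold change of the 6 tested chains in the 4 comparisons of groups, with bars of 1 SE (edgeR, 3 libraries a group). Myh4 and Myh1 lie at -1.92 and -1.66 in IF + PBS against AL + PBS, and 0 of the 24 values was called.

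Of 10 genes of the neuromuscular junction and of myogenic factors, 2 to 4 passed the filter in a comparison, and Chrnb1, a muscle acetylcholine receptor subunit, led at a mean of 4.60 FPKM. The r with Myh4 of the 4 such genes that passed the filter over all libraries was 0.21 to 0.48. Slow fibre genes had a median r with Myh4 of 0.17, led by Tnnt1, slow troponin T, at 15.4 FPKM and Csrp3 at 3.26 FPKM. The extraocular and developmental list had a median r with Myh4 of 0.23 and was led by Actc1, cardiac actin, at 3.42 FPKM and Myh7b at 2.91 FPKM. Tnnt2, cardiac troponin T, which was named from this list after its values were seen, was at 5.71, 12.1 and 13.2 CPM in AL + NaIO3 and at or below 1.58 CPM in the other 9 libraries. Its log2 fold change was 3.12 ± 0.51 in AL + NaIO3 against AL + PBS and -3.60 ± 0.59 in IF + NaIO3 against AL + NaIO3, with edgeR adjusted p of 0.119 and 0.109. The 3 non-muscle chains Myh10, Myh9 and Myh14 averaged 16.6, 10.4 and 7.63 FPKM, above every muscle chain, and had a median r with Myh4 of -0.03.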

How the data were processed

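RNA was extracted with Trizol from eye cups and poly-A libraries were made with a stranded kit. The labels give paired 150-base sequencing, while the methods call it single-end. Per the submitters' processing notes the authors used HISAT2, StringTie, DESeq2 and edgeR, with no versions given. The methods name GRCm39, but the coordinates in the deposited table match GRCm38. The authors deposited whole-number counts per gene and FPKM, and 12 columns of each were used. The authors' table of their own fold changes and p-values was not used. Even counts were commoner than odd ones among low values, so a low count may stand for fewer fragments than it shows.

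Counts were scaled by TMM and tested with edgeR 4.0.16 (filterByExpr, quasi-likelihood, 6 libraries per comparison, all 12 for the interaction) in R 4.3.3, adjusted by Benjamini-Hochberg over all genes tested. CPM used TMM factors over 12 libraries, correlations log2 CPM with a prior count of 2. The tests were checked on simulated counts. DESeq2 1.42.0 was an alternative, and others were upper quartile scaling, other filters on low counts, all libraries in one fit, a replicate block and leaving out each library. Marker lists held 114 genes in 13 lists. The genes named were all members, the 3 list genes of highest mean FPKM, called list genes and the 5 genes most correlated with Myh4 and with Myh11. Some genes that this rule names are not reported here. Members and lists were chosen with earlier results of these data known.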

Additional observations from a re-analysis of the deposited data

How the results depend on the processing

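Of the log2 fold changes and interaction values of the 6 tested members, 359 values under an alternative kept their direction and call, 19 reversed, 2 passed the test and 5 had no adjusted p. No member was called under upper quartile scaling, other filters, a fit of all 12 libraries or the replicate block. None was called under DESeq2, which in IF + NaIO3 against IF + PBS gave 5 of the 6 no adjusted p and so no call either way. The replicate block, with 0 members called in each comparison, turned Myh3 in AL + NaIO3 against AL + PBS to -0.094. The deviations of same-numbered libraries from their group means correlated between -0.10 and 0.14. Libraries of different numbers were not compared, so this cannot decide whether replicate numbers pair the libraries.

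Leaving out 1 library at a time, the log2 fold change in AL + NaIO3 against AL + PBS ranged from -0.021 to 0.64 for Myh1, -0.34 to 1.03 for Myh3, -0.58 to 0.076 for Myh4, -0.00071 to 1.39 for Myh7 and -0.057 to 1.62 for Myh11. Myh2 ranged from 0.14 to 1.02 in that comparison. In IF + NaIO3 against AL + NaIO3 Myh4 ranged from -0.81 to 0.35. In IF + PBS against AL + PBS it ranged from -1.999 to 0.21 for Myh3 and -0.61 to 0.52 for Myh11, with -2.09 to -1.22 for Myh1 and -2.53 to -1.43 for Myh4. In IF + NaIO3 against IF + PBS Myh3 ranged from -1.48 to 0.73. In the same comparison Myh4 ranged from 0.92 to 2.31. The interaction ranged from -0.27 to 1.47 for Myh2, -2.003 to 0.27 for Myh3, 1.11 to 2.50 for Myh4, -2.20 to -0.82 for Myh7 and -1.92 to -0.24 for Myh11. Calls in IF + PBS against AL + PBS ranged from 0 to 2 members and from 0 to 14 skeletal list genes, and the interaction from 0 to 1 smooth muscle gene (Synpo2). DESeq2 called 7 skeletal genes in IF + PBS against AL + PBS and 3 smooth muscle genes in IF + NaIO3 against AL + NaIO3. The cause was not tested.

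Scaled by library totals only, r of Myh2 with Myh11 was 0.035. Without AL + NaIO3 replicate 3 it was 0.18, that of Myh3 with Myh11 0.29, of Myh8 with Myh11 0.49 and of Myh3 with Myh13 -0.049. From counts per kilobase of exon the share among skeletal chains was 17.5% for Myh1, 4.32% for Myh3 and 2.74% for Myh7, the last pair in the reverse order of that by FPKM. Counts of calls for lists and interaction values per member were added to the alternatives after the data were seen. Levels of Myh8 and Myh13 were limited by depth.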
